A study of Drosophila melanogaster with 12 samples.

Results

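Of the 12 libraries in the series, 6 are described here: 3 input libraries from S2 cells given porthos double-stranded RNA (dsRNA) and 3 input libraries from S2 cells given GFP dsRNA. They were chosen by their titles, and no polysome library entered the comparison. The files list 17023 gene identifiers, and 8747 of them passed the filter on low counts within these 6 libraries and were tested. Of the rest, 3388 had no count in any of the 6 libraries and 4888 had counts too low to pass. S2 cells are an established Drosophila melanogaster line made from embryos. They share many traits with hemocytes, the fly's macrophage-like blood cells. Both groups received 1 µg of dsRNA, were moved to larger dishes 48 h later and were harvested after 3 more days. All cells were given cycloheximide, which holds ribosomes on mRNA, at 100 µg/ml for 3 min before lysis, and 20% of each lysate was kept as input. Input RNA was taken up in TRIzol, selected for poly(A) and made into libraries with a directional kit. dsRNA against GFP, which has no target gene in S2 cells, was the control, so both groups share the exposure to dsRNA. The labels number the replicates without saying that they were separate cultures. The p-values thus rest on differences between these samples that may be technical.

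Porthos (symbol pths) is a DEAD-box protein, one of a family of ATP-driven enzymes that remodel RNA and RNA-protein complexes. Many family members act in the nucleolus, where RNA polymerase I makes the ribosomal RNA precursor and assembly factors trim it and join it to ribosomal proteins. The wider study, by its title, is about mitochondrial function and tissue invasion by macrophages. The input libraries address which mRNAs differ in level in the whole lysate once porthos is depleted, before any ribosome loading is considered.

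The porthos dsRNA libraries held 10476832 to 11918941 counts and the GFP dsRNA libraries 9648377 to 10096996, and each had a count for 11487 to 11864 genes. Levels are given as CPM, the count scaled to the library total, after TMM scaling. A floor of 3 counts was 0.252 to 0.312 CPM and reflects counting error alone, because without molecular identifiers reads are not independent molecules. The groups lay apart on the first principal component (32.02% of the variance). On the second (20.36%), replicate 3 of the porthos group stood at 13.8, replicates 1 and 2 of that group at -11.9 and -10.6, and the GFP libraries between 1.08 and 4.04. The 7 plasmatocyte markers, those of the phagocytic hemocytes, summed to 536 to 550.0 CPM in porthos dsRNA libraries, against 469.7 to 475 CPM in GFP dsRNA libraries, and Hml, Pxn and eater, described below, are part of that sum. The defining plasmatocyte gene NimC1 had 3 to 13 counts and the crystal cell factor gene lz 0 to 4, while Hml, crq and srp were well above the floor. The neuronal gene elav was the main part of the neuron markers' sum (133 to 146 CPM in porthos dsRNA libraries, against 135 to 159 CPM in GFP dsRNA libraries). The 4 fat body markers summed to 7.3 to 8.8 CPM in porthos dsRNA libraries, against 5.9 to 6.7 CPM in GFP dsRNA libraries. Most of that sum came from apolpp, and Lsp1alpha was listed at 0 in all 6 libraries.

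The targeted gene was lower in every porthos dsRNA library. porthos (FBgn0032919, chromosome 2L, 21143229 to 21145146 on the plus strand of dm6) had 102, 104 and 92.1 CPM in porthos dsRNA libraries, against 212, 217 and 215 CPM in GFP dsRNA libraries. The groups lay far apart, and the GFP libraries differed little among themselves. The log2 change was -1.12 ± 0.06 (SE, n = 3 per group; adjusted p = 7.9e-14, Benjamini-Hochberg adjusted in edgeR's quasi-likelihood test, as are all adjusted p values here). On average 46.2% of the GFP level remained, and by replicate 47.5%, 48.2% and 42.9%. On the opposite strand the gene del, which overlaps porthos, averaged 216 CPM in porthos dsRNA libraries and 218 CPM in GFP dsRNA libraries, and had a log2 change of -0.02 (adjusted p = 0.90).

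With the porthos mRNA reduced, 360 genes were higher (4.12% of those tested) and 331 lower (3.78%) at an adjusted p under 0.05, the threshold for every call below. Most changes were small. The median log2 change was 0.299 among higher genes and -0.264 among lower genes, and over all genes tested it was 0.00. Rises of 1.5-fold or more were called in 55 genes and falls of that size in 13. For 2-fold or more the counts were 14 and 5. Of the genes past 2-fold, 11 of the 14 higher and 4 of the 5 lower stayed under 10 CPM in both groups, the exceptions being CG8745, Pxn and CG17350 among higher genes and porthos among lower genes. The libraries of the groups did not overlap for 348 higher and 325 lower genes, and for 25.59% of all genes tested. The median standard error of a log2 change was 0.088, and 1926 genes had an unadjusted p under 0.05. The counts moved with the libraries in the fit. When replicate 1 of the GFP group was left out 162 genes were higher and 144 lower. Leaving out its replicate 2 gave 166 and 137, and leaving out replicate 1 of porthos dsRNA gave 251 and 193, while without replicate 3 of porthos dsRNA they were 344 and 334. With all 12 libraries of the series in 1 fit the counts were 90 and 65, and 89 and 65 of these were among the calls above.

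**Figure D1:**
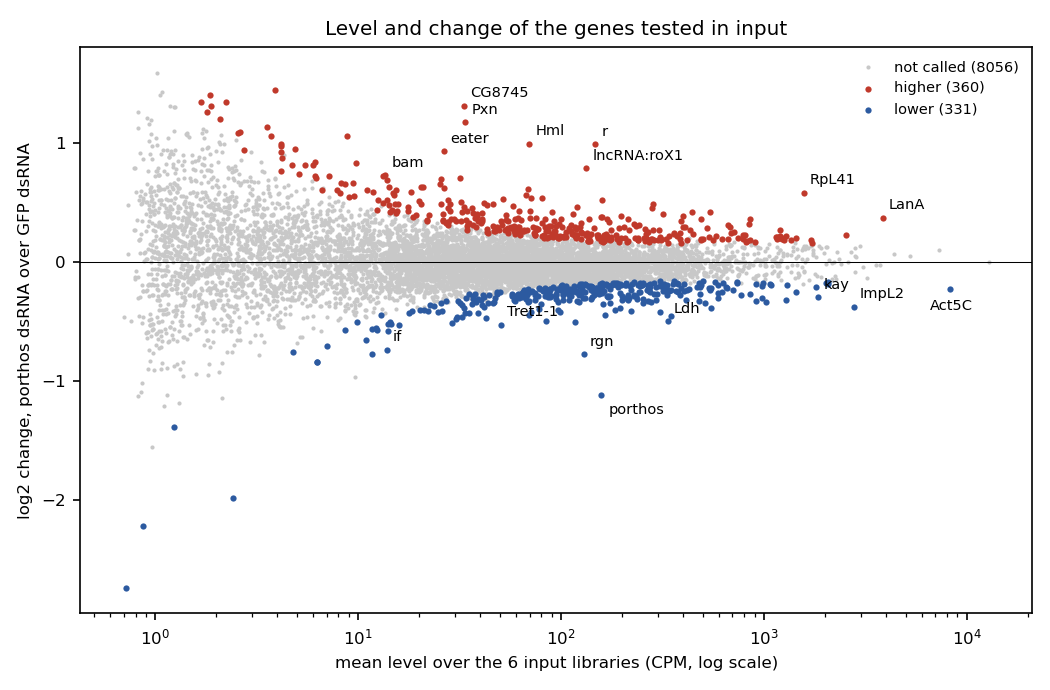
Each point is 1 of the 8747 genes tested. The x axis gives the mean level over the 6 input libraries (CPM, log scale) and the y axis the log2 change of porthos dsRNA over GFP dsRNA. Red points are the 360 higher genes, blue points the 331 lower genes and grey points the others. Calls lie on both sides of 0 at all but the lowest levels, and porthos lies at -1.12.

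Among genes with at least 10 CPM in a group, the largest rises were in CG8745, Pxn, CG17350, Hml, r and eater. CG8745 had 47.6, 46.0 and 48.8 CPM in porthos dsRNA libraries, against 21.5, 18.5 and 17.2 CPM in GFP dsRNA libraries (1.32 ± 0.10, adjusted p = 1.5e-10). The clotting gene Hml, for hemolectin, ends 25 bases from CG8745 on the other strand of 3L and had 107, 88.9 and 82.1 CPM in porthos dsRNA libraries, against 43.6, 45.7 and 49.9 CPM in GFP dsRNA libraries (1.00 ± 0.09). For Hml replicate 1 of the porthos group was the highest. Because CG8745 and Hml lie so close, their counts may not be independent. Pxn, which encodes the matrix peroxidase peroxidasin, had 41.4, 51.8 and 47.5 CPM in porthos dsRNA libraries, against 20.7, 22.9 and 18.4 CPM in GFP dsRNA libraries (1.18 ± 0.10, adjusted p = 4.8e-09). The phagocytosis receptor gene eater had 33.4, 33.4 and 37.1 CPM in porthos dsRNA libraries, against 18.6, 17.1 and 18.7 CPM in GFP dsRNA libraries (0.94 ± 0.10). CG17350 had 13.5, 10.8 and 11.5 CPM in porthos dsRNA libraries, against 5.94, 6.46 and 4.72 CPM in GFP dsRNA libraries (1.06 ± 0.17). The gene r, for the large enzyme that carries out the first steps of pyrimidine synthesis, had 201, 189 and 198 CPM in porthos dsRNA libraries, against 99.4, 107 and 89.6 CPM in GFP dsRNA libraries (0.99 ± 0.06, adjusted p = 4.6e-12). All of these genes were chosen among called genes whose groups did not overlap, so that separation followed from the choice.

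Smaller rises completed the list. Chosen by the same rule were the germline differentiation gene bam (0.73 ± 0.14), CG42854 (0.72 ± 0.13), CG5731 (0.71 ± 0.10) and CG13654 (0.70 ± 0.10). Among genes with at least 100 CPM in a group, the peroxiredoxin genes Prx6b (0.52 ± 0.07) and Prx6c (0.49 ± 0.07) rose. So did CG13185 (0.46 ± 0.05) and CG12325 (0.42 ± 0.08). Prx6b had 170.2, 204 and 189 CPM in porthos dsRNA libraries, against 135, 138 and 119 CPM in GFP dsRNA libraries. Prx6c lies close to Prx6b on 2R, and reads of similar stretches could have been shared between them.

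Among genes with at least 10 CPM in a group, the largest falls after that of porthos were in rgn, CG10486, if and Zip71B. rgn, named for its part in regeneration, had 79.6, 96.6 and 111 CPM in porthos dsRNA libraries, against 178, 156 and 156 CPM in GFP dsRNA libraries (-0.77 ± 0.08, adjusted p = 2.4e-07). For rgn replicate 1 of the porthos group was the lowest. As with the rises, these genes were chosen among called genes whose groups did not overlap. The integrin alpha subunit gene if had 9.87, 8.36 and 12.8 CPM in porthos dsRNA libraries, against 17.2, 19.2 and 15.5 CPM in GFP dsRNA libraries (-0.73 ± 0.15, adjusted p = 0.0018), and CG10486 had a log2 change of -0.77 ± 0.16. The zinc transporter gene Zip71B (-0.65 ± 0.15), the spindle protein gene mei-38 (-0.58 ± 0.14), the JAK/STAT ligand gene upd2 (-0.56 ± 0.16) and DENR, for a translation reinitiation factor (-0.53 ± 0.14), fell as well. CG18557, CG12991 and lncRNA:CR44526 completed the list with log2 changes of -0.57, -0.57 and -0.56. Some of these calls were lost when 1 library was left out. Without replicate 1 of the GFP group mei-38, upd2, DENR, CG12991 and lncRNA:CR44526 were not called, without its replicate 2 mei-38, DENR, CG12991 and Zip71B, and without its replicate 3 upd2 and CG12991. With replicate 1 of porthos dsRNA left out mei-38 and CG12991 were not called, with replicate 2 CG12991, and with replicate 3 upd2, DENR and lncRNA:CR44526. Over all alternatives the log2 changes ran from -0.69 to -0.48 for mei-38, from -0.72 to -0.40 for upd2, from -0.64 to -0.33 for DENR, from -0.63 to -0.44 for CG12991 and from -0.65 to -0.41 for lncRNA:CR44526.

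With at least 100 CPM in a group, the largest falls included those of CG3091, Ldh, Oatp58Dc, CG10126 and aos. Oatp58Dc, for an organic anion transporter, had 300.5, 287 and 298 CPM in porthos dsRNA libraries, against 419.8, 434 and 358 CPM in GFP dsRNA libraries (-0.45 ± 0.06). The amino acid transporter gene path (-0.41 ± 0.07) was lower too, as was, at a lower level, the trehalose transporter gene Tret1-1 (48.1, 37.9 and 38.8 CPM in porthos dsRNA libraries, against 58.3, 62.2 and 58.9 CPM in GFP dsRNA libraries, -0.52 ± 0.09). aos, for a secreted protein that binds and blocks the epidermal growth factor receptor (EGFR) ligand Spitz, had 251, 269.7 and 269 CPM in porthos dsRNA libraries, against 336, 359.9 and 362 CPM in GFP dsRNA libraries (-0.42 ± 0.05, adjusted p = 6.4e-06). CG3091 (-0.50 ± 0.06), CG10126 (-0.44 ± 0.06) and the selenoprotein gene BthD (-0.41 ± 0.07) also fell.

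**Figure D2:**
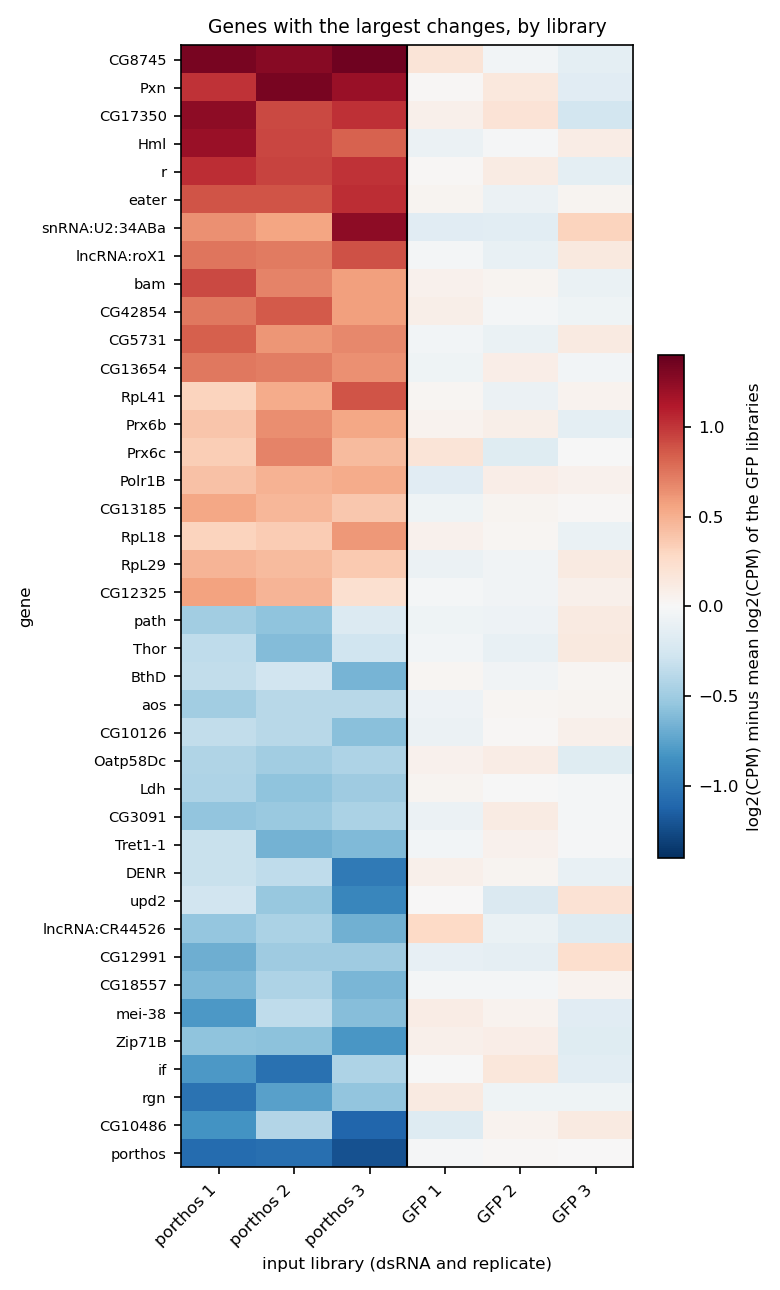
Rows are the genes with the largest rises and falls, with porthos at the bottom, and columns are the 3 porthos dsRNA libraries followed by the 3 GFP dsRNA libraries. Color gives log2(CPM) minus the mean log2(CPM) of the GFP libraries. The genes were chosen among called genes whose groups did not overlap, so in every row the porthos dsRNA libraries lie on 1 side. Within the porthos group, replicate 3 stands farthest out for RpL41, snRNA:U2:34ABa, CG10486 and DENR, and replicate 1 for Hml and rgn.

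In a list of matrix and basement membrane genes, calls were in 1 direction. The basement membrane is the sheet of laminin, collagen and linked proteins that hemocytes secrete. The list also holds the clotting gene Hml, which like Pxn is counted among the plasmatocyte markers below as well. The median log2 change was 0.13, against 0.00 over all genes. Of 15 tested, 6 were higher (40.0%, against 4.12% of all genes tested) and 0 lower by edgeR's test. Besides Hml and Pxn these were the laminin genes LanA, LanB1 and LanB2 and the collagen-binding protein gene SPARC. LanA had 4366, 4386 and 4305 CPM in porthos dsRNA libraries, against 3340.5, 3458 and 3255 CPM in GFP dsRNA libraries (0.38 ± 0.05, adjusted p = 1.6e-05), and its groups did not overlap. LanB1 and LanB2, for the other 2 chains of the laminin trimer, had log2 changes of 0.36 ± 0.05 and 0.22 ± 0.05, and SPARC of 0.24 ± 0.06. The type IV collagen genes Col4a1 (0.00) and vkg (-0.02) were not called, and in both the ranges of the groups overlapped. Outside the list, and named after its values were seen, wb, for the alternative laminin alpha chain, was lower (-0.36 ± 0.10), as was Mp, for another collagen (-0.70 ± 0.20). Without any 1 library, 5 or 6 of the 15 matrix genes were higher and 0 lower.

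Among 11 plasmatocyte markers Hml, Pxn and eater were the 3 called higher (27.3%, against 4.12% of all genes tested), and 0 were lower (median 0.07). The scavenger receptor gene crq had 211, 212 and 208 CPM in porthos dsRNA libraries, against 221, 230.4 and 237 CPM in GFP dsRNA libraries (-0.13, adjusted p = 0.13), and the GATA factor gene srp had a log2 change of -0.01 (adjusted p = 0.96). Among 11 phagocytosis receptor genes eater alone was called (9.09%). NimC4 (0.65 ± 0.24, adjusted p = 0.093) was not. In bulk samples, fewer cells of a type and less RNA per cell cannot be told apart. Lamellocyte markers summed to 100.5 to 121 CPM in porthos dsRNA libraries, against 122 to 133 CPM in GFP dsRNA libraries, mainly through the integrin alpha gene ItgaPS4, which fell (-0.31 ± 0.07). The lamellocyte marker PPO3 did not fall, with 23.7 to 31.6 CPM in porthos dsRNA libraries, against 22.4 to 25.5 CPM in GFP dsRNA libraries. The lamellocyte gene atilla had 0 to 7 counts. The peroxiredoxin gene Prx2, listed with crystal cell and lamellocyte genes, was lower too (817, 853 and 957 CPM in porthos dsRNA libraries, against 1139, 1080.1 and 1012 CPM in GFP dsRNA libraries). Of 11 transcription factor genes of hemocytes, 0 were higher and 2 lower (18.2%, against 3.78% of all genes tested), kay and pnt, described below.

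Most genes of glycolysis, the breakdown of glucose to pyruvate, fell. Of 12 tested, 0 were higher and 9 lower (75.0%, against 3.78% of all genes tested). All 12 had a log2 change below 0, and the median was -0.20. Ldh, for lactate dehydrogenase, which turns pyruvate into lactate, had 291, 266 and 278 CPM in porthos dsRNA libraries, against 404, 390.2 and 384 CPM in GFP dsRNA libraries (-0.50 ± 0.05, adjusted p = 2.4e-07). The 3 porthos dsRNA libraries were all below the 3 GFP dsRNA libraries, by a wide gap. The triose phosphate isomerase gene Tpi had 76.0, 63.9 and 70.9 CPM in porthos dsRNA libraries, against 98.2, 91.4 and 79.6 CPM in GFP dsRNA libraries (-0.35 ± 0.08, adjusted p = 0.0044), and its groups lay closer. In the order of the pathway, the early enzyme genes Pgi and Ald1 had log2 changes of -0.19 each, Gapdh1 and Gapdh2 of -0.25 and -0.19, Pglym78 of -0.27 ± 0.06, Eno of -0.24 ± 0.05 and PyK, for pyruvate kinase, of -0.21, and all 7 were called. Hex-A, for the hexokinase that starts the pathway, had a log2 change of -0.06, Pfk, for its main control enzyme, of -0.14, and Pgk of -0.05, and these were not called. Without replicate 1 or 2 of the GFP group 2 and 3 of the 12 were lower, with replicate 1 or 2 of porthos dsRNA left out 5 each, and without replicate 3 of either group 9. With all 12 libraries of the series in the fit 1 was lower, and the list median stayed between -0.17 and -0.26 throughout.

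**Figure D3:**
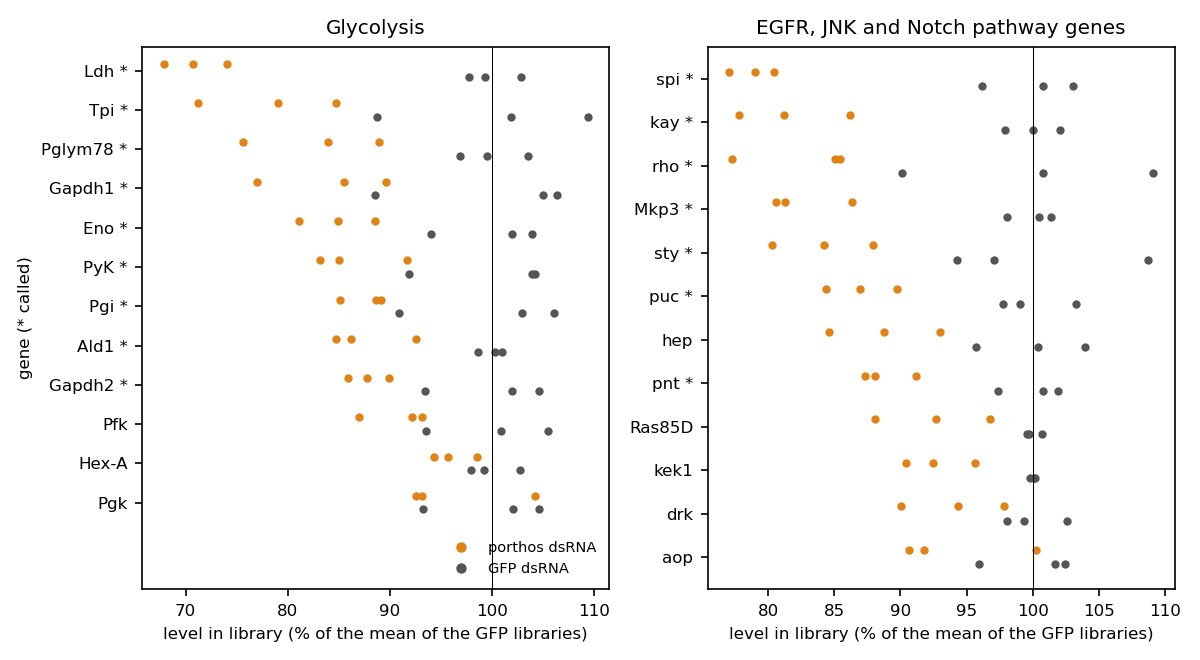
Each point is 1 input library, as a percent of the mean of the GFP libraries, with porthos dsRNA in orange above GFP dsRNA in grey for each gene. The left panel shows the 12 glycolytic genes and the right panel the 12 genes with the lowest log2 change of the 22 EGFR, JNK and Notch pathway genes. Asterisks mark called genes. For Ldh, spi, kay and Mkp3 the groups are widely apart, while for Pgk and aop they overlap.

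Calls among other metabolic and transporter genes were mixed. No gene of the TCA cycle and pyruvate entry was called by edgeR, DESeq2 or limma voom (0 of 18, median 0.01). The oxoglutarate dehydrogenase gene Ogdh (0.14 ± 0.05, adjusted p = 0.089) was the 1 gene with an unadjusted p under 0.05. Of 23 transporter genes for sugars, amino acids and metals, 2 were higher (8.7%) and 4 lower (17.4%), against 4.12% and 3.78% of all genes tested. The amino acid transporter gene JhI-21 (-0.25 ± 0.05), path, Tret1-1 and Zip71B fell, and the metallothionein gene MtnA (53.8, 62.3 and 67.0 CPM in porthos dsRNA libraries, against 39.8, 39.4 and 47.7 CPM in GFP dsRNA libraries) and the zinc transporter gene Zip99C (0.16) rose. Of 17 lipid synthesis genes, 0 were higher and 2 lower (11.8%). These were Pcyt1, for the rate-controlling enzyme of phosphatidylcholine synthesis (-0.32 ± 0.05, adjusted p = 0.0001), and the fatty acid desaturase gene Desat1 (-0.20 ± 0.05). Pcyt1 overlaps Pcyt2 on the same strand, so its counts are uncertain. Among 18 genes of pyrimidine and purine synthesis 3 were higher (16.7%) and 0 lower. These were r, called in every alternative, the folate enzyme gene Nmdmc (0.23 ± 0.06) and ras, for IMP dehydrogenase (0.21 ± 0.06). Nmdmc overlaps Rel on the same strand, so its counts are uncertain too. The call of ras was lost in 8 of 15 alternatives, DESeq2 and limma voom among them, and without replicate 1 or 3 of the GFP group or replicate 3 of porthos dsRNA, as with all 12 libraries, 1 gene of the list was higher. Dhod, which acts after r in pyrimidine synthesis, had 0.17 ± 0.07 (adjusted p = 0.12).

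In a list of EGFR, JNK and Notch pathway genes, many of which are switched on by the pathways they act in, genes of EGFR and JNK signaling fell. Of 22 tested, 0 were higher and 7 lower (31.8%, against 3.78% of all genes tested). The median was -0.09, and 20 lay below 0. The 7 called genes act in EGFR or JNK signaling, and no gene of the Notch pathway alone was called. The EGFR ligand gene spi had 442, 461 and 453 CPM in porthos dsRNA libraries, against 578, 551 and 591 CPM in GFP dsRNA libraries (-0.34 ± 0.05, adjusted p = 4.6e-05). Its groups were clearly apart, and each stayed within a narrow range. rho, for the protease that releases the Spitz ligand, had a log2 change of -0.27. kay, for the Fos subunit of the AP-1 transcription factor, had 1579.8, 1649 and 1750.4 CPM in porthos dsRNA libraries, against 2074, 2032 and 1988 CPM in GFP dsRNA libraries (-0.29 ± 0.05, adjusted p = 0.0005). The ETS factor gene pnt was lower too (-0.17 ± 0.05). The feedback inhibitors Mkp3, a MAPK phosphatase (-0.27 ± 0.06), sty, the sprouty protein (-0.25 ± 0.06), and puc, a JNK phosphatase (-0.20), were lower as well. aos, described above, is a feedback inhibitor of the same receptor and was not in the list. The kinase and adaptor genes rl, bsk, drk and Sos had log2 changes between -0.09 and 0.00 and were not called, and Egfr itself was near the filter limit and not called (0.53, adjusted p = 0.55). Leaving out 1 library left 5 to 7 lower, and the fit of all 12 libraries 3.

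Calls among genes for making ribosomes were in the higher direction. Of 45 ribosome biogenesis genes other than porthos, 13 were higher (28.9%, against 4.12% of all genes tested) and 0 lower. The median was 0.15, and 39 had a log2 change above 0. Mat89Ba had 139.7, 144 and 139 CPM in porthos dsRNA libraries, against 112, 118 and 106 CPM in GFP dsRNA libraries (0.33 ± 0.06, adjusted p = 0.00046). ppan, for the peter pan protein of large subunit assembly, had 93.7, 88.3 and 86.6 CPM in porthos dsRNA libraries, against 74.0, 70.7 and 68.2 CPM in GFP dsRNA libraries (0.33 ± 0.07), and l(3)72Dn had 0.42 ± 0.09. In each of these genes all porthos dsRNA libraries were above all GFP dsRNA libraries, by small margins. The box C/D methyltransferase gene Fib (0.17), Nopp140 (0.15) and Nop56 (0.09) were not called. RNA polymerase I, which transcribes the ribosomal RNA precursor, had its 2 largest subunits higher, Polr1A (0.31 ± 0.05) and Polr1B (134, 141 and 144 CPM in porthos dsRNA libraries, against 90.3, 108 and 105 CPM in GFP dsRNA libraries), of 11 genes tested. These 2 calls (18.2% of the list) held without any 1 library and in the fit of all 12 libraries. The exosome, which trims ribosomal RNA from its end, had 2 of 12 genes higher (16.7%) and 0 lower (median 0.17). The 2 were its nuclease gene Dis3 (0.29 ± 0.06) and the helicase gene Mtr4 (0.23 ± 0.06). The 3 Noc genes, whose yeast counterparts act in subunit assembly, were named after their values were seen, and all were higher: Noc1 (0.24 ± 0.06), Noc2 (0.30 ± 0.06) and Noc3 (0.30 ± 0.06). Without replicate 1, 2 or 3 of the GFP group the count of biogenesis genes called higher was 4, 7 and 8, with replicate 1, 2 or 3 of porthos dsRNA left out 6, 6 and 18, and in the fit of all 12 libraries 3.

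Among cytoplasmic ribosomal protein genes the calls were mostly in the higher direction. Of 83 tested, 28 were higher (33.7%) and 1 lower (1.20%), against 4.12% and 3.78% of all genes tested. The median was 0.14, and 71 lay above 0. RpL41 had 1559, 1796 and 2310.5 CPM in porthos dsRNA libraries, against 1280.0, 1187 and 1304 CPM in GFP dsRNA libraries (0.59 ± 0.08, adjusted p = 2.7e-05). The groups did not overlap, but the porthos dsRNA libraries differed widely among themselves, with replicate 3 the highest. RpL18 had 572, 588 and 701 CPM in porthos dsRNA libraries, against 480.1, 471 and 433 CPM in GFP dsRNA libraries (0.43 ± 0.06), and RpL29 had 0.43 ± 0.06. The 1 lower member was sta, for a small subunit protein (-0.18 ± 0.06, adjusted p = 0.042). The list summed to 98197 to 102240 CPM in porthos dsRNA libraries, against 92424 to 93493 CPM in GFP dsRNA libraries. Genes with under 1000 bases of exon, among them many ribosomal protein genes, took 9.18% to 9.32% of counts in porthos dsRNA libraries, against 8.69% to 8.81% in GFP dsRNA libraries. With the trend of gene length removed 23 were higher and 4 lower (median 0.12). Without replicate 1 of the GFP group 9 were higher, without its replicate 2 12, with any other library left out 19 to 26, and in the fit of all 12 libraries 3.

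**Figure D4:**
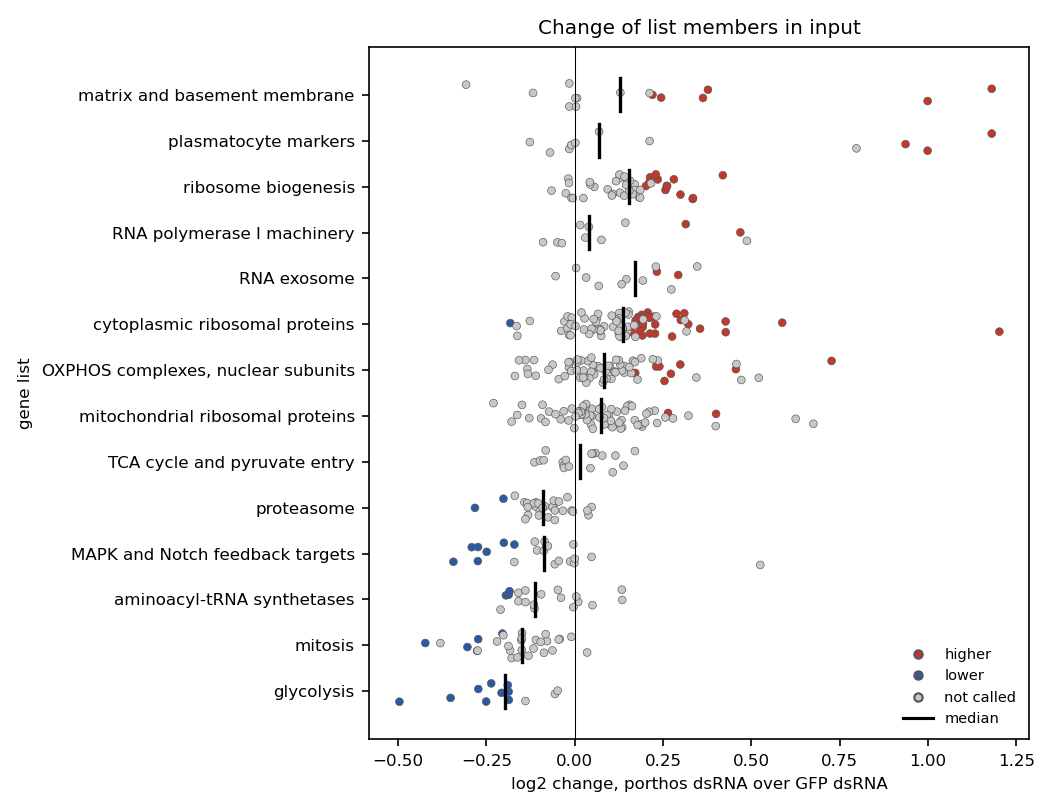
Each point is 1 tested gene of the named list, placed by its log2 change of porthos dsRNA over GFP dsRNA. Red points are higher, blue lower and grey not called, and the black bar is the list median. Matrix, ribosome biogenesis and ribosomal protein genes lie mostly right of 0, and glycolysis, mitosis and aminoacyl-tRNA synthetase genes mostly left of it.

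Other genes of translation were called in both directions. Of 44 cytosolic translation factor genes 4 were higher (9.09%) and 3 lower (6.82%), against 4.12% and 3.78% of all genes tested (list median -0.04). eIF5 had 0.27 ± 0.06 and eEF1alpha2 0.41 ± 0.10, while eIF1A had -0.20 ± 0.05 and eIF4A, for the helicase that unwinds the start of mRNAs, -0.19 ± 0.05. eIF4A is itself a DEAD-box protein. Of 25 DEAD-box genes other than porthos, 2 were higher (8.0%), the nucleolar pit (0.21 ± 0.06) and Dbp73D (0.26 ± 0.07). Another 2 were lower (8.0%), eIF4A and CG10333 (-0.22 ± 0.06). Without replicate 1 or 2 of the GFP group, without replicate 1 of porthos dsRNA and with all 12 libraries, 0 of the 25 were called by edgeR. Among 19 aminoacyl-tRNA synthetase genes, whose enzymes charge transfer RNA, 0 were higher and 3 lower (15.8%, median -0.11). These were HisRS (-0.19 ± 0.05), MetRS (-0.19 ± 0.05) and TrpRS (-0.18 ± 0.06). HisRS had 180.3, 188 and 182 CPM in porthos dsRNA libraries, against 209.5, 209.7 and 211 CPM in GFP dsRNA libraries, which were nearly equal within each group. Without replicate 1 or 2 of the GFP group and with all 12 libraries 0 of the 19 were called, and with any other library left out 1 to 4 were lower. In the translation factor list 0 of the 44 were called with all 12 libraries, and without replicate 1 of the GFP group 2 were higher and 0 lower.

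Genes for the mitochondrial respiratory chain showed small differences. Of 71 nuclear genes for subunits of oxidative phosphorylation (OXPHOS), 8 were higher (11.3%, against 4.12% of all genes tested) and 0 lower (median 0.08). The largest were ATPsynepsilonL (0.73 ± 0.18, 10.2 CPM or less in every library) and the complex III gene UQCR-6.4, which had 35.8, 42.9 and 47.5 CPM in porthos dsRNA libraries, against 31.3, 29.9 and 30.8 CPM in GFP dsRNA libraries (0.46 ± 0.10, adjusted p = 0.003). The cytochrome oxidase genes COX7A (0.23 ± 0.06) and COX7C (0.24 ± 0.07) rose too, and 4 more of the called genes, ATPsynC, sun, ox and UQCR-Q, had log2 changes from 0.17 to 0.30. COX7C overlaps oys on the opposite strand, which was lower (-0.30). No gene with the complex I prefix ND was called, and ND-49 came nearest (0.16, adjusted p = 0.051). Of 72 mitochondrial ribosomal protein genes 2 were higher and 0 lower (median 0.07), mRpL1 (0.26 ± 0.07) and mRpS2 (0.40 ± 0.12). That is a smaller share, 2.78%, than the 4.12% of all genes tested, and it was 0 without replicate 3 of the GFP group, without replicate 1 of porthos dsRNA and with all 12 libraries. DESeq2 called 1 of them. The 13 mitochondrially encoded mRNAs were listed at 0 in all libraries. Without replicate 1, 2 or 3 of the GFP group 2, 1 and 4 OXPHOS genes were higher, with replicate 1, 2 or 3 of porthos dsRNA left out 8, 3 and 5, with the length trend removed 5, and in the fit of all 12 libraries 0. Of the other genes of the study, atos had 217, 194 and 230.2 CPM in porthos dsRNA libraries, against 253, 245 and 229 CPM in GFP dsRNA libraries (-0.18 ± 0.06, adjusted p = 0.055). CG9331 had 132, 137 and 145 CPM in porthos dsRNA libraries, against 123, 126 and 133 CPM in GFP dsRNA libraries (0.11 ± 0.06, adjusted p = 0.26), and for both genes the groups overlapped.

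Calls among mitotic genes were in the lower direction. Of 29 tested, 0 were higher and 5 lower (17.2%, against 3.78% of all genes tested). The median was -0.15, and 28 had a log2 change below 0. CycB, for a mitotic cyclin, had 192, 203 and 187 CPM in porthos dsRNA libraries, against 255, 238 and 223 CPM in GFP dsRNA libraries (-0.30 ± 0.06, adjusted p = 0.00081). fzr, for an activator of the complex that degrades cyclins, had 29.5, 29.0 and 31.6 CPM in porthos dsRNA libraries, against 45.3, 38.2 and 37.6 CPM in GFP dsRNA libraries (-0.42 ± 0.09). In both genes the groups were apart and replicate 1 of the GFP group was the highest. The cytokinesis kinesin gene pav (-0.27 ± 0.06), the phosphatase gene stg, which starts mitosis (-0.20 ± 0.06), and borr, for a chromosomal passenger protein (-0.28 ± 0.09), fell too. Of 30 DNA replication genes 1 was higher (3.33%), RPA1 (0.19 ± 0.06), and 2 were lower (6.67%), against 4.12% and 3.78% of all genes tested. For RPA1 the groups overlapped, and its call was lost in 5 of 15 alternatives. Lower were the S phase cyclin gene CycE (-0.26 ± 0.06) and the transcription factor gene E2f1. E2f1 had 360.2, 383 and 407 CPM in porthos dsRNA libraries, against 468, 436 and 451 CPM in GFP dsRNA libraries (-0.24 ± 0.05). With all 12 libraries 0 of the 30 replication genes were called. Without replicate 1 or 2 of the GFP group, or replicate 1 of porthos dsRNA, 0 were higher and 1 lower. Without replicate 1 or 2 of the GFP group 1 and 3 mitotic genes were lower, without any other library 5 to 7, and in the fit of all 12 libraries 1. Of 6 histone genes tested 0 were called by edgeR, DESeq2 or limma voom, and 2 had an unadjusted p under 0.05. Another 103 histone genes had no count, and mRNAs of replication-dependent histone genes carry no poly(A) tail.

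In growth control and stress lists most calls were in the lower direction, and over all genes tested 4.12% were higher and 3.78% lower. Of 21 genes of Myc, insulin and TOR signaling, 0 were higher and 3 lower (14.3%). ImpL2, for a secreted protein that binds insulin-like peptides, had 2469, 2331 and 2465 CPM in porthos dsRNA libraries, against 3184, 3045 and 3171 CPM in GFP dsRNA libraries (-0.37 ± 0.05, adjusted p = 2e-05). Thor, for the 4E-BP repressor of translation, had 197, 166 and 209 CPM in porthos dsRNA libraries, against 246, 235 and 278 CPM in GFP dsRNA libraries (-0.41 ± 0.07), and Rheb, for the activator of TOR, had -0.21 ± 0.06. All 3 had groups that did not overlap, but Rheb lost the call in 9 of 15 alternatives, DESeq2 and every fit that left out a library among them. Of 16 genes of the ATF4 stress response, 1 was higher (Nmdmc, 6.25%) and 2 lower (Ldh and Thor, 12.5%), with 14 below 0 (median -0.10). Called by edgeR, DESeq2 or limma voom were 0 of 21 heat shock and cytosolic chaperone genes, with 3 at an unadjusted p under 0.05, and 0 of 20 genes of protein entry into the endoplasmic reticulum, with 2. The co-chaperone gene stv had 17.8, 20.7 and 20.8 CPM in porthos dsRNA libraries, against 9.89, 11.1 and 23.9 CPM in GFP dsRNA libraries, with replicate 3 of the GFP group above all others. Without that library 3 chaperone genes were higher and 2 lower, and with no filter on low counts 2 and 2. Of 31 proteasome genes 0 were higher and 2 lower (6.45%, median -0.09), and 28 lay below 0. These were Prosalpha6 (-0.28 ± 0.05), called in every alternative, and Prosalpha3 (-0.20 ± 0.06), which lost the call in 8 of 15, DESeq2 included. Of 20 genes of p53, Xrp1 and cell death, 1 was higher (5.0%), Ku80 (0.22 ± 0.06). The death gene rpr (-0.27 ± 0.07) and Irbp18 (-0.26 ± 0.07) were lower (10.0%), and without replicate 2 of the GFP group 0 of the 20 were called. Of 16 ecdysone response genes 1 was higher (6.25%), Eip74EF (0.25 ± 0.08), and 3 lower (18.75%): Ldh, ImpL2 and the receptor subunit gene usp (-0.29 ± 0.05). These 3 were called in every alternative, while Eip74EF lost the call in 10 of 15, with DESeq2, with limma voom and in every fit that left out a library.

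Lists of immune signaling and cell shape genes had more genes lower than higher, and over all genes tested 4.12% were higher and 3.78% lower. Of 37 genes of the Imd, Toll and JAK/STAT pathways, 2 were higher (5.41%) and 4 lower (10.8%), and without replicate 1 of the GFP group 0 and 1. Lower were Socs36E, a feedback inhibitor of JAK/STAT (402, 337 and 370.1 CPM in porthos dsRNA libraries, against 487, 446 and 449 CPM in GFP dsRNA libraries, -0.32 ± 0.06), the ligand genes upd2 and upd3 (-0.33), and the Toll pathway factor gene dl (-0.18 ± 0.05). Higher were key, for a subunit of the Imd pathway kinase complex (0.21 ± 0.06), and Dif, another Toll pathway factor (0.42). The call of dl was lost in 7 of 15 alternatives and that of key in 5. Of 28 actin and actin assembly genes 1 was higher (3.57%), Cyfip (0.18 ± 0.05), and 3 lower (10.7%): Act5C, for the main cytoplasmic actin (7727, 7774 and 7502 CPM in porthos dsRNA libraries, against 9315, 9088 and 8448 CPM in GFP dsRNA libraries, -0.22 ± 0.05), the filament elongation gene ena (-0.21 ± 0.05) and the Arp2/3 subunit gene Arpc1 (-0.17 ± 0.05). For Act5C the porthos dsRNA libraries were all below the GFP dsRNA libraries. Arpc1 lost the call in 12 of 15 alternatives, DESeq2, limma voom and both other scalings among them, and without replicate 2 of the GFP group or with all 12 libraries 0 actin genes were lower. Of 15 integrin adhesion genes 0 were higher and 2 lower (13.3%), if and ItgaPS4. The shared beta subunit gene mys was not called (-0.12 ± 0.05, adjusted p = 0.17). Of 15 RNA interference genes 0 were higher and 1 lower (6.67%), Ranbp21 (-0.22 ± 0.07), whose call was lost in 6 of 15 alternatives. AGO2 (0.12 ± 0.05, adjusted p = 0.13) and Dcr-2 (0.15 ± 0.05, adjusted p = 0.092) were not called.

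The roX RNAs, noncoding RNAs of the complex that raises transcription of the male X chromosome, were called in opposite directions. lncRNA:roX1 had 164, 162 and 180.2 CPM in porthos dsRNA libraries, against 95.2, 90.7 and 107 CPM in GFP dsRNA libraries (0.79 ± 0.06, adjusted p = 1.9e-09). lncRNA:roX2 had 61.0, 71.2 and 65.9 CPM in porthos dsRNA libraries, against 81.4, 76.3 and 76.8 CPM in GFP dsRNA libraries (-0.24 ± 0.07, adjusted p = 0.03). The groups were far apart for roX1 and close for roX2. The call of lncRNA:roX1 held in every alternative, and that of lncRNA:roX2 was lost without any 1 of the GFP libraries, without replicate 1 of porthos dsRNA and with all 12 libraries. ec, which overlaps roX1 on the opposite strand, was higher too (0.26), so the counts of the pair are uncertain. The protein genes of dosage compensation were not called, with msl-1 at 0.11 ± 0.05 (adjusted p = 0.24). Among 300 long noncoding RNAs 4 were higher (1.33%) and 3 lower (1.0%), smaller shares than the 4.12% and 3.78% of all genes tested (list median -0.01). Among 32 small nuclear and nucleolar RNAs 3 were higher (9.38%) and 0 lower (median 0.24). Leaving out 1 library left 1 to 3 higher, with list medians from 0.04 to 0.34. Of those called, snoRNA:U3:54Ab averaged 3.21 CPM in porthos dsRNA libraries, against 1.26 CPM in GFP dsRNA libraries. snRNA:U5:34A averaged 2.69 CPM, against 1.085 CPM. Their calls were lost in 3 and 7 of 13 alternatives, for snRNA:U5:34A with limma voom among them. snRNA:U2:34ABa, a spliceosomal RNA, had 10.8, 10.2 and 16.6 CPM in porthos dsRNA libraries, against 6.25, 6.26 and 8.62 CPM in GFP dsRNA libraries. Replicate 3 of the porthos group was the highest, and spliceosomal RNAs carry no poly(A) tail. Of 20 germline genes expressed in S2 cells 2 were higher (10.0%), bam and the piRNA gene qin (0.61 ± 0.14). The translation repressor gene pum (-0.21 ± 0.06) was the 1 lower (5.0%). Germline markers bam and aub together summed to 229.6 to 235 CPM in porthos dsRNA libraries, against 200.1 to 207 CPM in GFP dsRNA libraries. The germline markers vas and nos were matched to no identifier. Most of the sum came from aub, which was not called (0.15 ± 0.05, adjusted p = 0.058). On the opposite strand aub overlaps TTLL4A, which was called higher (0.18), so the counts of that pair are uncertain.

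Called genes were more often abundant than genes in general. Their median level was 87.5 CPM for higher and 132 CPM for lower genes, against 38.7 CPM for all genes tested. In the highest 20% by level 7.37% of genes were higher and 9.26% lower, and in the lowest 20% 1.20% and 0.286%. By summed exon length, in the shortest 20% 4.85% of genes were higher and 1.99% lower, and in the longest 20% 4.92% and 5.03%. On the X chromosome 45 of 1459 genes were higher (3.08%) and 76 lower (5.21%), with a median log2 change of -0.04, while the medians of the other large arms lay between 0.00 and 0.01. Runs of 3 or more neighbouring genes called the same way were found at 2 places, both on 2R. CG8230, CG8229 and Tom7 (chr2R:8944298-8952242) were higher, by 0.24 to 0.36. GstE7, GstE8 and GstE9, for glutathione S-transferases (chr2R:18406924-18409835), were lower, by log2 changes of -0.23 to -0.47, and reads may be shared between such similar genes. Of the 113 named genes that were called, 40 share positions with a tested gene of the other strand, and that partner was called the same way in 1 case and the other way in 3.

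**Figure D5:**
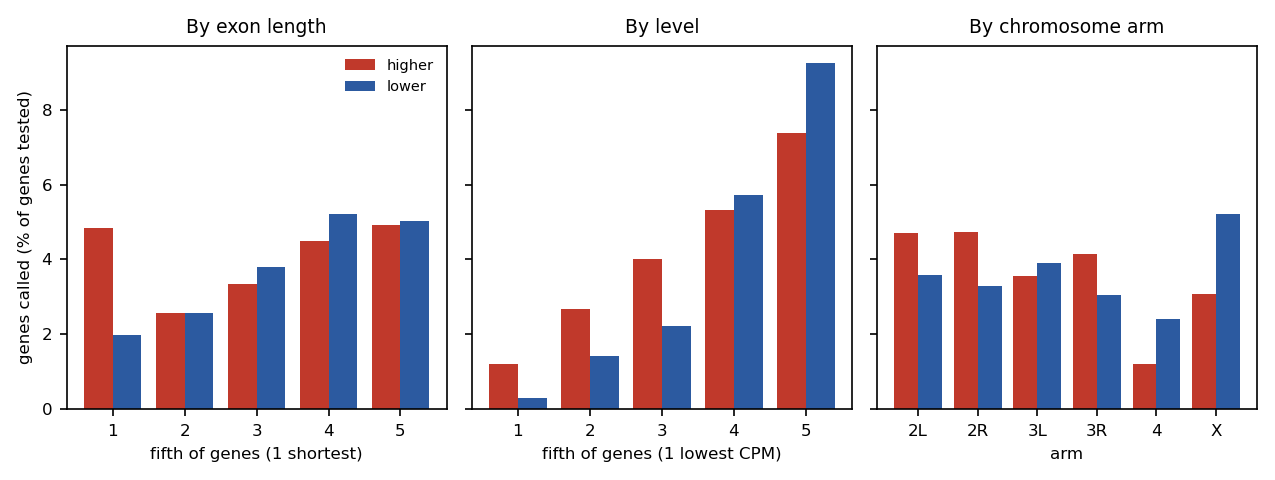
Bars give the percent of tested genes that were higher (red) and lower (blue) with porthos dsRNA, in 20% classes of summed exon length, in 20% classes of mean level and by chromosome arm. The share called grows with level in both directions, the shortest genes have more higher than lower calls, and X has more lower than higher calls.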

How the data were processed

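RNA was sequenced from 12 S2 cell libraries, and the 6 input libraries are used here. Per the submitters' processing notes, reads were aligned with HISAT2 2.1.0 to dm6 and counted with featureCounts 1.4.6. Whether counting used strand and how reads with several matches were treated is not given in the sources used here. The deposited values are raw counts per gene, 1 file per library, and 16647 of 17023 identifiers were given a symbol from the Ensembl 115 annotation, whose genome is of the same build. The 376 others held 5.38% of the counts. Low genes were removed with filterByExpr of edgeR 4.0.16 (R 4.3.3), libraries were scaled by TMM, and glmQLFit with glmQLFTest compared porthos with GFP dsRNA over the 6 libraries with no covariate. Calls were made at a Benjamini-Hochberg adjusted p under 0.05. Fold changes are log2 with standard errors, and the tests were checked on simulated counts. Alternatives used DESeq2 1.42.0, limma voom 3.58.1, other scalings and filters, a replicate block, a length trend, all 12 libraries, and each library left out. Named genes were porthos, the 12 called genes per direction with the largest change at 10 CPM or more and groups that did not overlap, the 10 such genes at 100 CPM or more, the 4 members of each list lowest in p, and the study's own genes. Others were named after their values were seen. The comparison and the gene lists were chosen with earlier results of these data known. Lists were matched by symbol (3531 entries) or synonym (25), and 39 entries are not analysed here.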

Additional observations from a re-analysis of the deposited data

How the results depend on the processing

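The fall of porthos was called in every alternative, with log2 changes from -1.15 to -1.06, and no named gene changed direction in any alternative. The counts of calls (360 higher and 331 lower) moved most with the libraries in the fit and with the threshold. Leaving out 1 library gave 162 to 344 higher and 137 to 334 lower genes. All 12 libraries in the fit gave 90 and 65, and an adjusted p under 0.01 gave 153 and 137. The cause of these moves was not tested. DESeq2 gave 315 and 298, limma voom 332 and 323, library-size scaling 384 and 324, RLE size factors 368 and 326, no filter 434 and 363, a stricter filter 417 and 326, and the length trend removed 376 and 331. Deviations from the group mean had correlations of -0.018, 0.088 and 0.034 between same-numbered libraries, and of -0.092 to 0.056 between the others. With 3 libraries per group these cannot decide whether the numbers mark pairs, and the main fit used no pairing. The replicate block gave 393 and 363. Among the lowest 20% of genes by level, where counts are few, 1.20% were higher and 0.286% lower, and the part of depth in this was not tested. Of 15 alternatives, all 12 libraries in the fit cost the most named calls, 61.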

Other observations

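Some further gene families were grouped by symbol after their values were seen, so their counts are a description and no test. Over all genes tested 4.12% were higher and 3.78% lower. Of 5 Idgf genes, for secreted chitinase-like growth factors, 3 were higher and 0 lower, and Idgf6 had 355, 384 and 349.7 CPM in porthos dsRNA libraries, against 281, 289.7 and 249 CPM in GFP dsRNA libraries (0.41). Of 7 COPI coat genes, for vesicle transport to the endoplasmic reticulum, 3 were higher and 0 lower, with log2 changes of 0.29 for alphaCOP, 0.21 for beta'COP and 0.19 for deltaCOP. Of 18 nucleoporin genes 3 were higher and 0 lower, Nup188 (0.23), Nup133 (0.22) and Nup160 (0.20). Of 3 Pvf genes, for ligands of the PDGF- and VEGF-like receptor, 0 were higher and 2 lower, Pvf3 (-0.46) and Pvf2 (-0.22). Of 29 glutathione S-transferase genes 4 were higher and 3 lower, and of the 11 in the GstE group 1 was higher, GstE12 (0.29), and 3 lower. Calls were mixed too among 10 neprilysin-like genes, with 2 higher and 1 lower, and among 6 peroxiredoxin genes, with 2 and 1. The chromatin protein genes HmgD (-0.28), HmgZ (-0.31) and Hmg-2 (-0.32) were all lower, but HmgD and HmgZ overlap on opposite strands, so their counts are uncertain.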
